A study of Homo sapiens with 4 samples.

Results

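Peaks of MTA1 chromatin immunoprecipitation (ChIP) that lay in the largest gene-free interval of an autosome, or on sequences outside the assembled chromosomes, were examined in HCT116, a human colorectal carcinoma line of epithelial morphology. The study held 4 libraries of formaldehyde-fixed cells, 2 of MTA1 ChIP and 2 of input chromatin prepared without antibody, and the labels name no genetic change or agent. Each of the authors' 2 peak lists set 1 ChIP library against the input with the same number, and they are called list 1 and list 2 here. Members were chosen by position alone. A peak was taken when it overlapped by at least 1 bp the longest interval of an autosome without any RefSeq gene of any type (GRCh38), or when it lay on a sequence other than chromosomes 1 to 22, X and Y. The rule took 94 of 32042 peaks in list 1 and 250 of 31079 in list 2, 344 of 63121 in all. Since there was 1 list per replicate number and peaks are not replicates of a condition, no test between the lists was made, and 95% Wilson intervals cover counting error only. Whether the replicates were separate cultures is not stated, the lists carry no read counts, and depth is therefore unknown. A difference between the lists cannot be told apart from a difference between their ChIP libraries or between their inputs.

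MTA1 is a subunit of the NuRD complex, which joins a histone deacetylase to a nucleosome remodelling ATPase and acts mostly to close chromatin. Human centromeres are built on long tandem arrays of alpha satellite DNA and are bordered by other satellite families. These arrays hold few genes, and the assembly represents them by modelled sequence or leaves gaps. NuRD subunits have been described at pericentromeric satellite heterochromatin of dividing lymphoid cells. Unplaced sequences are assembled pieces with no known chromosome, unlocalised sequences have a chromosome but no position on it, and alternate loci and patches are further versions of chromosome segments. The gene table gives no centromere positions, so the intervals are called by their gene-free extent and not by a centromere. No sequence of these regions was printed, because the reference tables used here hold sequence of promoters and microRNAs alone and 0 member peaks in the intervals overlapped one of the 35116 promoter windows.

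Member peaks formed a larger share of list 2 than of list 1. They were 0.293% of list 1 (Wilson interval 0.240 to 0.359%) and 0.804% of list 2 (0.711 to 0.910%). In list 1, 55 members lay in gene-free intervals and 39 on 21 other sequences. In list 2, 110 lay in intervals and 140 on 39 other sequences. The word unplaced fits only some of the latter. List 1 had 7 peaks on unplaced, 21 on unlocalised and 11 on alternate or patch sequences, and list 2 had 63, 67 and 10. The alternate and patch sequences were thus the class with nearly equal numbers in both lists, while unplaced and unlocalised sequences held more peaks in list 2.

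**Figure D1:**
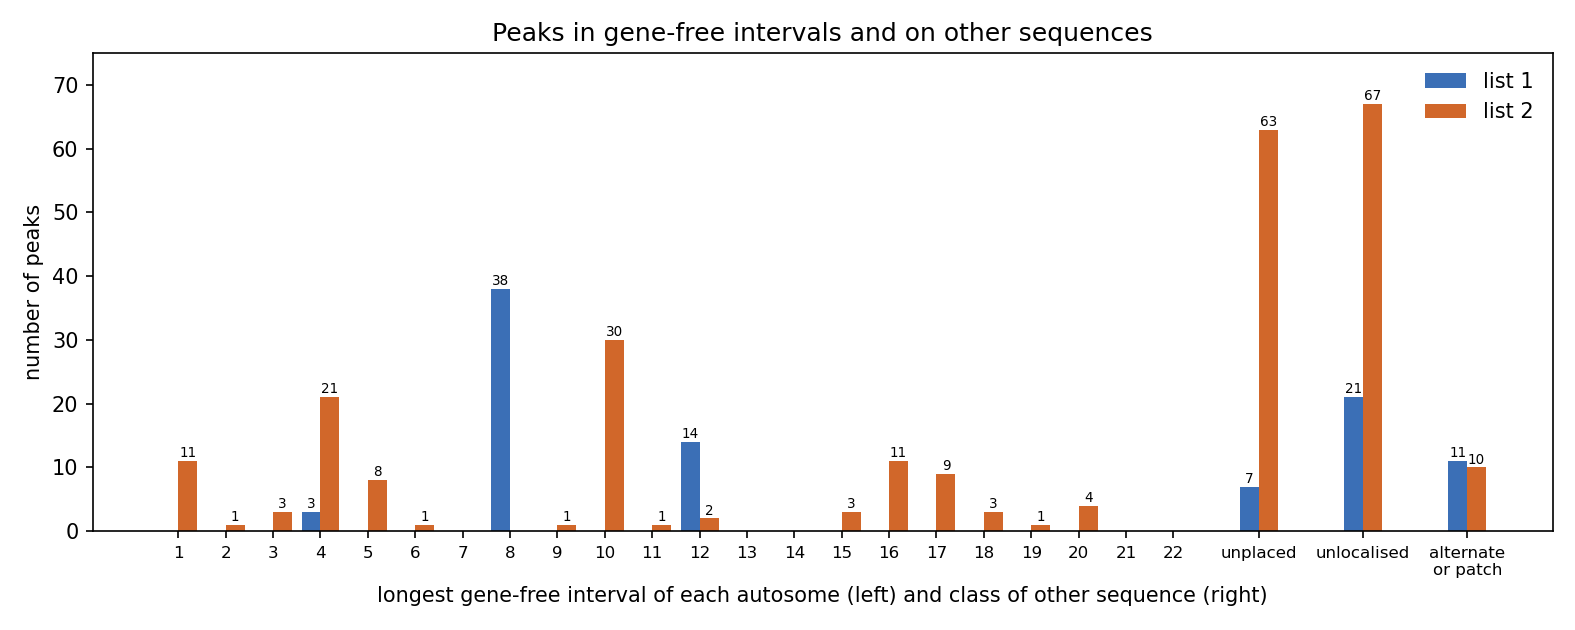
Number of peaks (vertical axis) in the longest gene-free interval of each autosome (1 to 22) and on each class of other sequence (right), for list 1 (blue) and list 2 (orange). List 1 is concentrated on chromosomes 8 (38 peaks) and 12 (14), list 2 is spread over 16 autosomes with most peaks on 10 (30) and 4 (21), and the unplaced and unlocalised classes are taller in list 2.

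The lists also differed in how high member peaks stood in their own ranking by the authors' score. Of the 250 list 2 members, 51 were among the 100 best-scoring peaks of their list, where 0.322% of all list 2 peaks fall, and 2 of the 94 list 1 members were, against 0.312%. Within the first 10 ranks of list 2, 7 peaks were members, 5 of them in intervals. The first 20 ranks held 11 and the first 50 held 29. In list 1 the first 20 ranks held 0 members, and the first 200 held 2. Further down list 2 the share fell to 19.6% of the best 500 (16.4 to 23.3%) and 3.10% of the best 5000 (2.65 to 3.62%). The best-scoring 10% of each list (10.0% of all peaks by construction) held 137 of 250 list 2 members (54.8%, 48.6 to 60.9%) and 23 of 94 list 1 members (24.5%, 16.9 to 34.1%). Both shares were above that of the list as a whole.

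**Figure D2:**
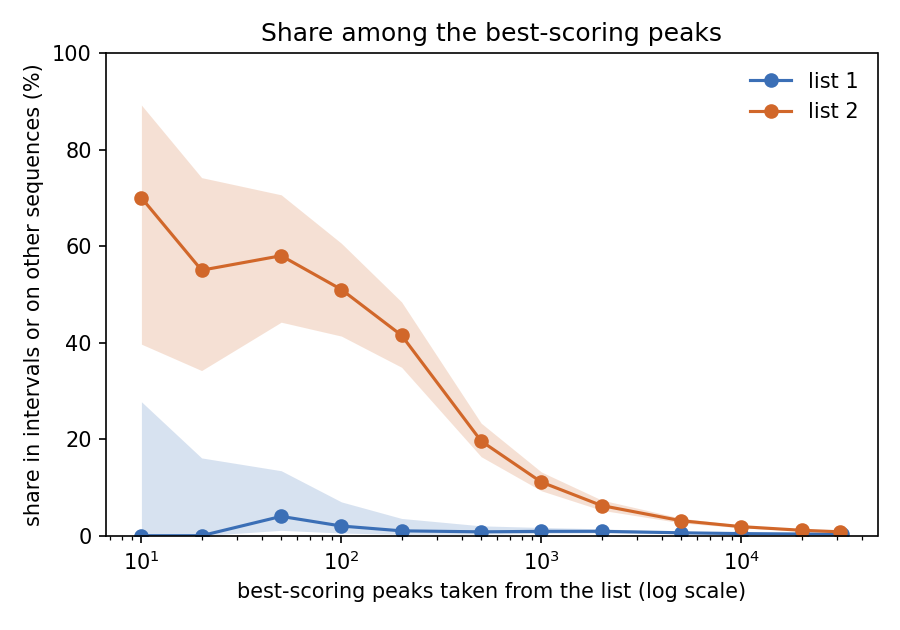
Share of peaks that lie in the intervals or on other sequences (vertical axis, percent) among the best-scoring peaks of each list (horizontal axis, log scale), with 95% Wilson intervals as bands. The list 2 line starts at 70.0% of the 10 best and is 51.0% at 100, whereas list 1 peaks at 2 of the 50 best.

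In list 2 the median member score was 93.2 (interquartile range 67.4 to 203), against 60.6 (54.4 to 71.3) for all other peaks of that list. For list 1 the corresponding medians were 71.2 (58.7 to 105) and 64.1 (55.5 to 80.8). The scale of the score is not stated, so scores are set side by side without a fold between lists. Interval peaks carried the higher level in list 2, with a median of 129 (78.4 to 269) and a median rank within the best 1.11% of the list. Peaks on other sequences of list 2 had a median of 79.1 (63.5 to 139). In list 1 the order was the opposite, with a median of 70.6 (58.1 to 92.7) in intervals and 76.1 (59.4 to 118.3) on other sequences, ranges that overlap widely. Unlocalised sequences had the highest median of the 4 classes in list 1, at 97.8 over 21 peaks, 15 of them from 1 sequence.

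Width set list 2 members apart from the remainder of their list more than it did in list 1. Median width was 590.5 bp (421 to 972) for list 2 members and 447 bp (390 to 515) for its other peaks, and 739 bp (584 to 1059) and 712 bp (519 to 983) in list 1. Of all list 2 peaks, 1.13% were at least 1000 bp wide, whereas 60 of 250 members were (24.0%, 19.1 to 29.7%). In list 1, 27 of 94 members reached that width (28.7%, 20.6 to 38.6%), close to the 24.0% of all list 1 peaks. Members made up 13 of the 33 list 2 peaks of at least 2000 bp and 6 of the 11 of at least 3000 bp. The corresponding list 1 numbers were 8 of 706 and 0 of 131. Wider members also scored higher, with a Spearman rho between score and width of 0.51 over 250 list 2 members and 0.15 over its 30829 other peaks. In list 1 rho was 0.61 over 94 members and 0.45 over 31948 others. These correlations are across peaks that share a library and are given as a description.

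**Figure D3:**
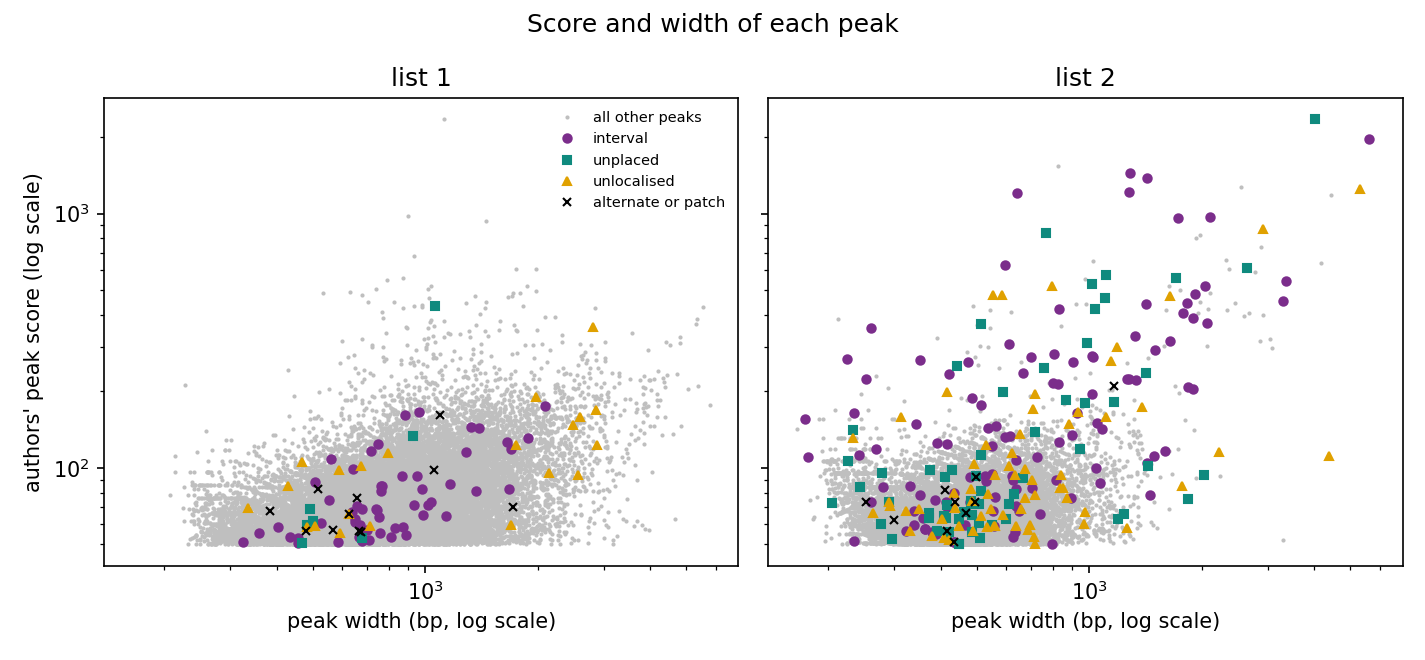
The authors' score (vertical axis, log scale) against peak width in bp (horizontal axis, log scale) for every peak of list 1 (left) and list 2 (right), with members coloured by class and all other peaks in grey. In list 2 the wide, high-scoring corner holds members, up to 5611 bp and 2350, together with other peaks, up to 4447 bp and 1544. Members are 13 of the 33 list 2 peaks of at least 2000 bp. In list 1 the members lie inside the grey cloud.

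The 22 intervals together spanned 159.6 Mb and ranged from the 2.16 Mb between IGKV1OR2-2 and BMS1P23 on chromosome 2 to 21.7 Mb on chromosome 1. Peaks were sparse over this length, with 0.345 per Mb in list 1 and 0.689 per Mb in list 2, against 11.7 and 11.3 per Mb on the rest of the autosomes. How much of each interval is assembly gap was not known here, so these densities are lower bounds for the sequence that reads can reach. The second-longest gene-free interval of each autosome, which the rule did not take, held 46 list 1 and 122 list 2 peaks over 23.2 Mb (1.98 and 5.26 per Mb). Summed over the autosomes, these second intervals thus had a lower density than the rest of the autosomes in both lists. Single ones departed from this in list 2, such as that of chromosome 16, with 25.7 per Mb against 11.2 per Mb on the rest of that chromosome. Of the peaks in these second intervals, 3 of 122 in list 2 and 0 of 46 in list 1 were among the 100 best of their list. In the longest intervals 31 of 110 and 0 of 55 were, over 159.6 Mb in place of 23.2 Mb. The share over all peaks was 0.322% in list 2 and 0.312% in list 1.

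Interval peaks were found on 3 autosomes in list 1 and 16 in list 2. Chromosomes 4 and 12 had interval peaks in both lists, chromosome 8 in list 1 alone, 14 autosomes in list 2 alone, and 5 (7, 13, 14, 21 and 22) in neither. On chromosomes 13, 14, 21 and 22 the longest interval lay below the first peak of either list, which started at 18.9, 18.7, 7.26 and 10.7 Mb. The gene table also lists 12, 28, 107, 11 and 59 genes below 5 Mb under chromosomes 13, 14, 15, 21 and 22. The lower end of the intervals of these chromosomes rests on such genes. Some of these positions may be those of other sequences given under the chromosome's name, so the lower ends printed here may be wrong. Leaving these genes out kept the members at 94 and 250.

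The list 2 interval peaks with the highest scores stood on chromosomes 5, 18, 20 and 3. On chromosome 5 the interval of 4.70 Mb ends at 50396191, next to EMB, which encodes the cell-surface glycoprotein embigin. Its 8 list 2 peaks included chr5:49656322-49661932, which scored 1974 (rank 2 of list 2) and was 5611 bp wide. A second peak at chr5:49666087-49667363 scored 1222 (rank 8), and another at chr5:49601052-49603149 scored 967 (rank 11). These 3 peaks lay 728.8 kb or more from EMB, and the other 5 peaks of the interval scored 111 or less. List 1 had 0 peaks there.

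The chromosome 18 interval of 5.62 Mb held 3 list 2 peaks and 0 of list 1, and chr18:20561509-20562790 scored 1449 (rank 4). The chromosome 20 interval (26251589 to 28580632, LOC124904967 to FRG1CP) had 4 list 2 peaks, and all 4 were among the 100 best. The best of them was chr20:28494618-28496041 with 1379 (rank 5). On chromosome 3 (91513776 to 93843763, LOC101930420 to RNU6-488P) a single strong list 2 peak, chr3:93470251-93470890, scored 1204 (rank 9), and the other 2 scored 67.7 each. Scores of this height therefore came from isolated peaks or short groups on these 4 chromosomes.

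Chromosomes 10 and 4 held longer runs of list 2 peaks. The chromosome 10 interval (38719383 to 42149318) lies between CHEK2P5, a pseudogene, and KSR1P1, another pseudogene, and had 30 list 2 peaks and 0 of list 1. Of these, 26 followed each other from 41856991 to 41915285 with less than 10 kb between neighbours and covered 51.4% of the 58.3 kb. Their median score was 195.0, the best reached 484, and 12 were among the 100 best of list 2. The remaining 4 interval peaks of chromosome 10 lay apart from this run.

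On chromosome 4 the interval (49589729 to 51833883) separates SNX18P25, a pseudogene, from DCUN1D4, a gene of the neddylation pathway. List 2 had 21 peaks there, 17 of them in a run of 25.7 kb from 49632304 to 49658035 with a best score of 373. Some 50 kb further along, at 49708181 to 49711957, 3 list 2 peaks scored up to 964 (rank 12). The 3 list 1 peaks of the interval lay in the same place, from 49709414 to 49711797. They scored 166 (rank 624), 98.7 and 88.1 in list 1. Among the interval sites this was the one with more than 1 overlapping pair.

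Chromosomes 8 and 12 showed the reverse, with most interval peaks in list 1. The chromosome 8 interval (43540928 to 46549088, CYP4F44P to HSPA8P13) held 38 list 1 peaks and 0 of list 2. Of these, 36 lay between 46010514 and 46448133, with a median score of 65.0 and a best score of 144 (rank 1078). Averaged over the interval, the density of 12.6 list 1 peaks per Mb was near the 11.4 per Mb of the rest of chromosome 8. The peaks were unevenly placed, since a stretch of 2.44 Mb of the interval held no peak. Within 1 Mb beyond the ends of the interval there were 38 list 2 peaks and 23 list 1 peaks. Their best scores were 432 and 271, and 2 of the list 2 peaks were among the 100 best of that list. Without this interval, list 1 had 56 members in place of 94. On chromosome 12 (34250266 to 37575342, AK6P1 to ZNF970P) 14 list 1 peaks lay between 34293128 and 34406977, with a median score of 82.1 and a best score of 176 (rank 494). List 2 had 2 peaks in that interval, scoring 53.7 and 74.8. None of the 55 list 1 interval peaks was among the 100 best of its list.

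**Figure D4:**
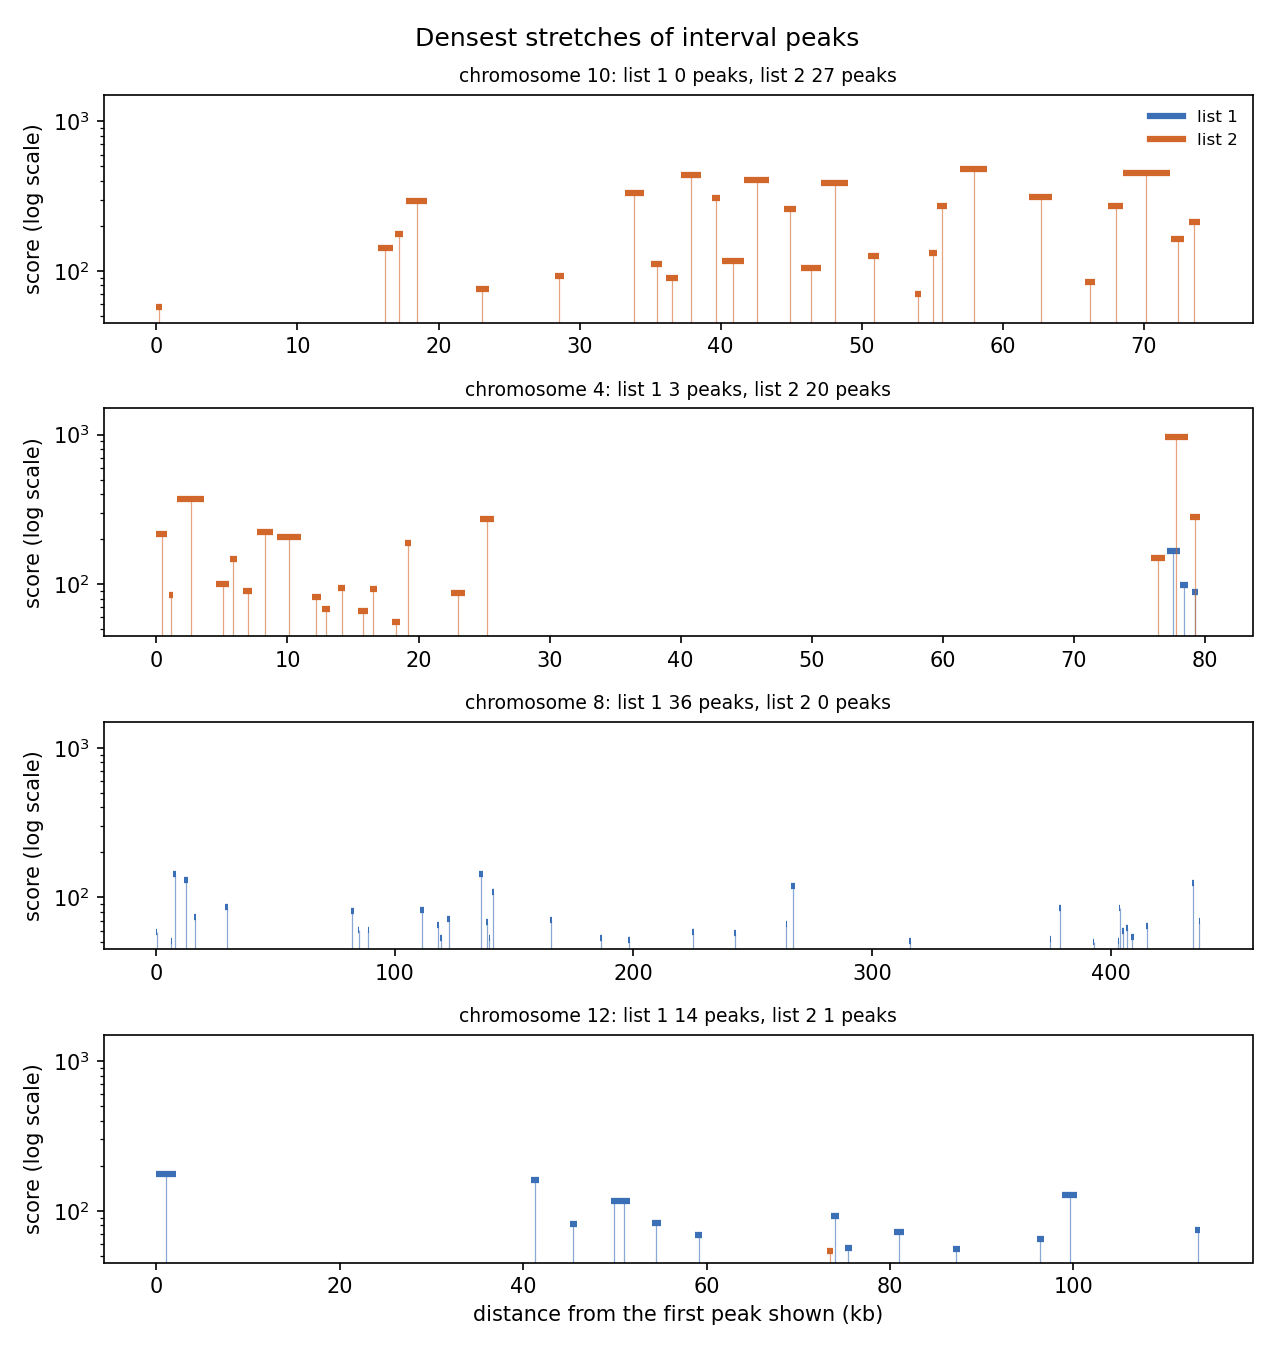
Peaks of list 1 (blue) and list 2 (orange) in the 1 Mb windows with the most interval peaks, with the distance from the first peak shown in kb (horizontal axis) and the authors' score (vertical axis, log scale); the bars span each peak. Chromosome 10 has 27 peaks of list 2 alone, chromosome 4 has 20 of list 2 and 3 of list 1 at 1 shared place, chromosome 8 has 36 of list 1 alone, and chromosome 12 has 14 of list 1 and 1 of list 2.

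Chromosomes 1, 9 and 16 carry large blocks of pericentromeric heterochromatin on their long arms. The chromosome 1 interval (121571889 to 143299517, EMBP1 to LOC101929814) held 11 list 2 peaks, 3 from 125167874 to 125180351 and 8 from 143195396 to 143268339, around a stretch of 18.0 Mb without a peak of either list. The best of the 11 scored 236 (rank 102). On chromosome 16 (36102206 to 46469336, LOC101929923 to ANKRD26P1) there were 11 list 2 peaks, 8 of which lay from 46383647 to 46401858 with a best score of 546 (rank 28). The chromosome 9 interval (43139881 to 60832661, LOC102724904 to CNTNAP3P4) had 1 list 2 peak with a score of 111, next to 17.5 Mb without a peak. List 1 had 0 peaks in these 3 intervals. Chromosome 17 (22705637 to 26981691, WEE1P2 to LOC100422478) had 9 list 2 peaks, 5 of them within 5.02 kb from 26880976, with a best score of 630 (rank 21).

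The other intervals with list 2 peaks had few of them. Chromosome 15 (4557208 to 19883613, LOC107984723 to RNU6-978P) had 3, the best at 234. Single peaks lay on chromosome 2 (92035128 to 94192530; score 269), chromosome 11 (50420632 to 54591479, LOC646813 to OR4C50P; 223), chromosome 6 (58121086 to 60281437, RBBP4P4 to PRIM2BP; 124) and chromosome 19 (24179012 to 27681071, LOC124904678 to LOC105372345; 84.0). The empty intervals were those of chromosome 7 (57868450 to 60991901, LOC102723842 to LOC101060796), chromosome 13 (409913 to 18176736, LOC128966556 to LOC124903223), chromosome 14 (480023 to 16024657, LOC107984634 to DUX4L48), chromosome 21 (498025 to 5010453, LOC105379507 to LOC105379484) and chromosome 22 (412369 to 10685646, LOC124905547 to LOC124905154). With no gene inside these intervals by construction, every interval peak is intergenic in this annotation.

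The ends of the intervals are a threshold, and peaks lay on both sides of them. In list 2 the peak nearest to an end from inside was chr19:27680137-27680416, at 0.655 kb from LOC105372345, with a score of 84.0. In list 1 the nearest inside was chr8:43566505-43566863 at 25.6 kb (score 55.4), and the nearest outside was chr19:24177555-24178267 at 0.745 kb (score 68.5). Within 1 Mb beyond the ends there were 186 list 1 peaks (4.23 per Mb) and 283 list 2 peaks (6.43 per Mb). These densities count every margin as 1 Mb. They are somewhat low, because the intervals of chromosomes 13, 14, 21 and 22 start less than 1 Mb from base 1. Of the 283 list 2 peaks, 20 were among the 100 best, where 0.322% of all list 2 peaks fall. The intervals themselves held 31 of the 100 best over 159.6 Mb, so such peaks were denser in the margins. Of the 20, 14 lay on chromosome 4 from 49091173 to 49156719, below the interval, which starts at 49589729. The strongest was chr4:49148711-49151251, with a score of 1269 (rank 6). List 1 had 1 of its 100 best in that margin, on chromosome 20. High list 2 scores on chromosome 4 were thus found in separate groups on both sides of the interval's lower end.

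Outside the assembled chromosomes, 52 sequences carried a peak in at least 1 list, 8 of them in both, 13 in list 1 alone and 31 in list 2 alone. By class, both lists had a peak on 4 of 23 unplaced, 3 of 12 unlocalised and 1 of 17 alternate or patch sequences. Most sequences had a single peak, 17 of 21 in list 1 and 22 of 39 in list 2. Such sequences hold too few peaks to describe a pattern along them.

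The unplaced sequence KI270438.1 carried the top-ranked peak of list 2, 4028 bp wide with a score of 2350, and a second at 108539 to 111183 that scored 609 (rank 22). It had 4 list 2 peaks in all and 0 in list 1. On the unlocalised KI270729.1, assigned to chromosome 17 in the assembly, 9 list 2 peaks spanned 903 to 28227 and covered 46.4% of that stretch. The first of these, 903 to 6203, scored 1254 (rank 7), and 5 of the 9 were among the 100 best. KI270544.1 had 1 list 2 peak, from 28 to 793, with a score of 839 (rank 14). KI270465.1 (574, rank 25) and KI270411.1 (559, rank 26) likewise had 1 strong list 2 peak each, starting at positions 8 and 106. List 1 had 0 peaks on these 5 sequences.

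By number of peaks, the unplaced GL000216.2 led list 2 with 21, of which 14 lay within its first 29.4 kb. Their best score was 467, and the best on the sequence was 528 (rank 29) at 79640 to 80658. List 1 had 2 peaks there, from 160563 to 171278, with a best score of 134. KI270736.1 (chromosome 22, unlocalised) followed with 18 list 2 peaks whose scores were lower, with a median of 71.7 and a best of 149. KI270442.1 had 11 list 2 peaks with a best score of 311 and 1 list 1 peak with 50.7.

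GL000225.1, an unlocalised piece of chromosome 14, was the sequence with the most list 1 peaks. It carried 15 of the 39 list 1 peaks on other sequences and 10 list 2 peaks. The list 1 peaks had a median width of 1749 bp, a median score of 95.4 and a best score of 189 (rank 364), and 10 of them lay from 29525 to 88873. The list 2 peaks had a median width of 716 bp, a median score of 59.1 and a best score of 123 (rank 431). In number of peaks this sequence went against the order of the lists over all members. The greater width in list 1 followed the order of the lists over all peaks. The 2 list 1 members among the 100 best lay elsewhere, at 790 to 1849 of KI270467.1 (score 432, rank 29) and at 62062 to 64866 of GL000205.2 (358, rank 50). The latter, an unlocalised piece of chromosome 17, had 3 peaks in each list, and list 2 scored 76.2 at best there.

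Alternate loci and patches had median scores above those of all peaks (64.1 in list 1 and 60.65 in list 2). List 1 had 11 peaks on 10 such sequences with a median of 67.4 and a best of 161, on KI270772.1. List 2 had 10 on 8 with a median of 73.2 and a best of 209, on the patch KN196487.1. None was among the 100 best, and 1 of 11 in list 1 and 2 of 10 in list 2 fell in the best-scoring 10%, where 10.0% of all peaks fall.

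KI270733.1 and GL000220.1 are known to hold a copy of the ribosomal RNA (rRNA) transcription unit, the template of the large and small ribosomal RNAs in the nucleolus, followed by the intergenic spacer. The gene table gives RNA45SN4 from 122273 to 135645 and RNA45SN5 from 105424 to 118780 without naming their sequences, and their placement on KI270733.1 and GL000220.1 is taken from general knowledge of the assembly. All peaks on both sequences lay beyond the higher-coordinate end of the unit, and 0 lay inside it. On KI270733.1 there were 15 list 2 peaks between 0.494 and 25.3 kb past RNA45SN4, the best with a score of 873 (rank 13) at 148812 to 151731, and 1 list 1 peak at 15.6 kb with a score of 106. On GL000220.1 there were 6 list 2 peaks between 1.27 and 24.1 kb past RNA45SN5, the best at 139063 to 139576 with 368 (rank 63), and 1 list 1 peak at 20.3 kb with 59.5. In both cases the list 1 peak overlapped the best list 2 peak.

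**Figure D5:**
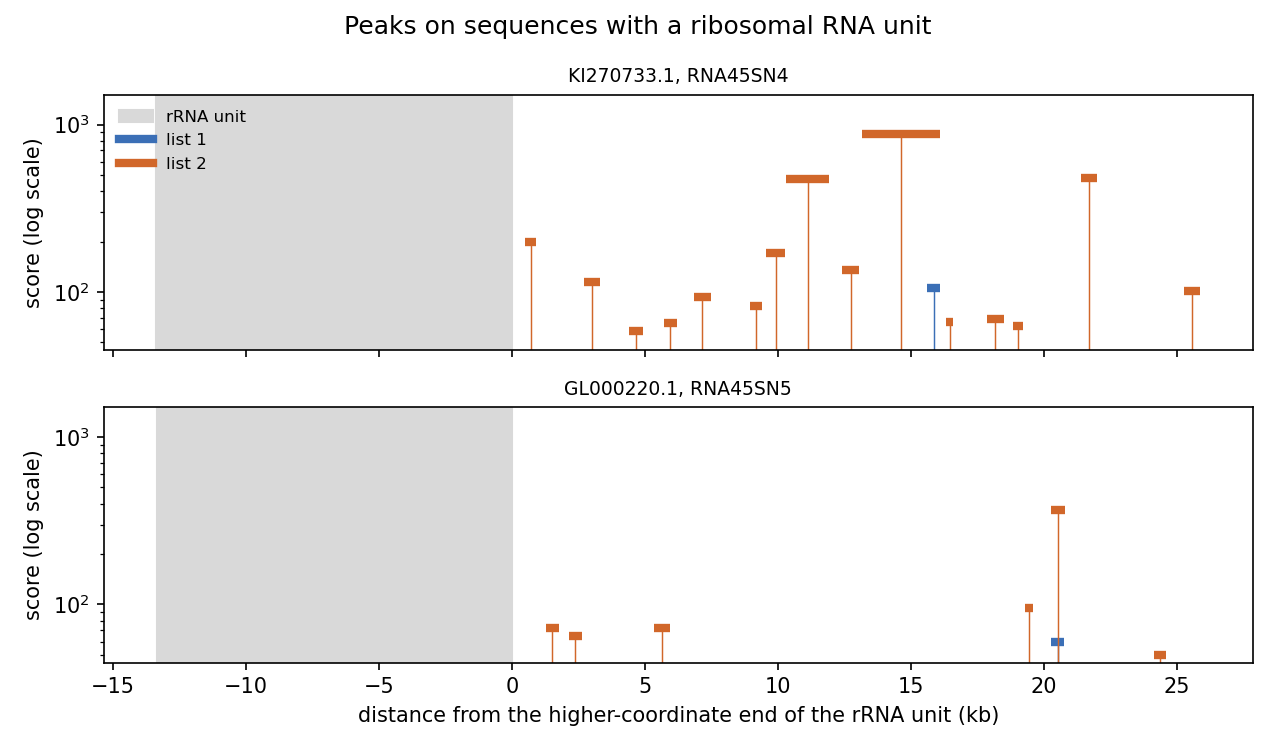
Peaks of list 1 (blue) and list 2 (orange) on KI270733.1 (top) and GL000220.1 (bottom), with the distance from the higher-coordinate end of the rRNA unit in kb (horizontal axis), the authors' score (vertical axis, log scale) and the unit in grey. All 16 peaks above and all 7 below lie past the unit, and each list 1 peak overlaps the tallest list 2 peak.

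Chromosome 21 carries 3 further units, RNA45SN1, RNA45SN2 and RNA45SN3, which lie outside the rule. None of these units held a peak of either list. Within 30 kb above them lay 6, 10 and 8 list 2 peaks, with best scores of 168, 653 and 420. List 1 had 0, 1 and 1 peaks there, with best scores of 69.1 and 58.5. Within 30 kb below them, RNA45SN2 and RNA45SN3 had 0 peaks of either list, while RNA45SN1 had 8 list 2 peaks and 1 list 1 peak. RNA45SN1 starts at 8433222 and RNA45SN3 ends at 8402343, so the stretch below the former is almost the same as the stretch above the latter. Copies of the unit are nearly identical, so how reads were divided among the 5 places cannot be told from the lists.

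Overlap between the lists was rare over all peaks, and members had a higher share than that only in list 1. Of 94 list 1 members, 10 overlapped a list 2 peak (10.6%, 5.88 to 18.5%), beside 3.53% of all list 1 peaks. Of 250 list 2 members, 8 overlapped list 1 (3.20%, 1.63 to 6.19%), beside 3.62% of all list 2 peaks. The list 2 share was close to that of the whole list, and the interval of the list 1 share rests on 10 peaks at 6 places. These were the chromosome 4 site, KI270733.1, GL000220.1, GL000225.1, chromosome 12 and KI270442.1. The pair with the lowest sum of ranks was on chromosome 4, with scores of 166 in list 1 (rank 624) and 964 in list 2 (rank 12) and all 963 bp of the list 1 peak overlapped. Scores on KI270733.1 were 106 and 873, with 460 bp in common. At GL000225.1 the list 1 peaks at 78089 to 80951 (168) and 42453 to 44201 (124) met list 2 peaks of 60.3 and 57.9, and the former list 1 peak had the best list 1 rank of any pair (585). The chromosome 12 pair shared 275 bp with scores of 92.6 and 53.7, and the KI270442.1 pair shared 277 bp with 50.7 and 60.4. Of the 51 list 2 members among its 100 best, 4 were overlapped by list 1, at the chromosome 4 site (2 peaks), KI270733.1 and GL000220.1.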

How the data were processed

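The submitters' processing notes name cutadapt, Bowtie2 and GRCh38 for the 4 libraries, without versions. The authors deposited 2 peak lists whose column 5 holds a score per peak; the peak names are of the form that MACS writes, and its version, settings, filters and score scale were not given in the sources used here. Peaks were called per replicate number, not on pooled libraries, and the lowest score was 50 in both lists. How reads with several alignments were treated is not given either, and it can change peak calls in repeated sequence. Scores were used to rank and describe peaks within a list. Depth per sample is unknown, because the lists give no read counts.

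Gene-free intervals were the runs between merged RefSeq genes of all types (59679 genes on chromosomes 1 to 22, X and Y, GRCh38.p14), with the run from base 1 included. Positions are 1-based, and the lists count from 0. Ranks run over all sequences, with ties at the better rank. Clusters joined peaks less than 10 kb apart, and margins were 1 Mb. Classes of other sequences were entered by hand from general knowledge of the assembly's accessions. Named were, by rule, every interval, the 5 best-scoring members in intervals and on other sequences, the 5 fullest sequences, the 3 fullest windows of 1 Mb and all shared members. The members and lists were chosen with earlier results of these data known, and the clusters, margins, wide-peak limits and rRNA units were chosen after the peaks were seen. The code was tested on simulated data. Python 3.11.15, pandas 2.3.3 and scipy 1.17.1 were used. Some border genes of intervals, and results that rest on them, are not reported here.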

Additional observations from a re-analysis of the deposited data

Results flagged for a closer look

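A pair of gene-free intervals outside the membership rule carried list 2 peaks among the 100 best of that list. The second-longest interval of chromosome 16 (34433115 to 34978721, LOC102724523 to LINC02184) held 14 list 2 peaks with a best score of 449, 2 of them among the 100 best, and 0 list 1 peaks. On chromosome 21 the second-longest interval (10649836 to 13038165, IGHV1OR21-1 to ANKRD30BP2) held 23 list 2 peaks with a best score of 552, 1 of them among the 100 best, and 0 list 1 peaks. The longest interval of chromosome 21 held 0 peaks of either list.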

How the results depend on the processing

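Alternatives kept the order of the lists, with more members and more of the 100 best in list 2 under every setting that recomputed those counts, which all but the stricter overlap did. Of 107 recomputed values, 80 stayed within 1.5 times the main value (counts, densities) or within the 95% interval of the median. With only protein-coding genes as borders, members numbered 186 and 387, interval density was 0.763 and 1.28 peaks per Mb, median width 635.5 and 487 bp (lists 1 and 2 throughout), and the list 2 median score 73.7. That setting moved the intervals of chromosomes 2 and 4 to other places, and so dropped the 21 list 2 peaks of the main chromosome 4 interval. In the better-scoring 50% of each list, list 1 had 61 members, a median score of 92.8, a median width of 932 bp and 0.219 interval peaks per Mb. There the list 2 median score was 112, and 3 list 2 members were overlapped. Leaving out chromosome 8, list 1 had 56 members and 0.109 interval peaks per Mb. Intervals alone gave 55 and 110 members, 0 and 31 of the 100 best, a list 2 median score of 129 and 3 overlapped members. Other sequences alone gave 39 and 140 members, 20 of the 100 best in list 2, a list 2 median score of 79.1 and 5 overlapped members. When 50% of both peaks had to overlap, 4 list 2 members were shared. These changes follow from the peaks each setting takes or drops. The run from base 1, midpoints, the chromosome 21 interval, genes below 5 Mb and alternate sequences moved no value past these limits, the last 3 being alternatives chosen after seeing the data. Leaving out the run from base 1 changed no interval, and midpoints took the same 94 and 250 members. Leaving out genes below 5 Mb only lengthened intervals where no peak lay. Each of these settings gave 11 of the 80 values, which therefore say little about stability. Depth is unknown, so the absence of a peak cannot be read as absence of signal. No paired analysis was possible because there is 1 list per replicate number and no test was made.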

Other observations

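Beyond the intervals, their margins and the second-longest intervals, 24 of the 100 best list 2 peaks lay elsewhere on the autosomes. Of those 24, 18 fell on 3 chromosomes. On chromosome 2, 6 list 2 peaks from 89827800 to 89841249 were all among the 100 best, with a best score of 656. They lay inside the extent of IGK, the immunoglobulin kappa locus, 2.19 Mb from the chromosome 2 interval, and list 1 had 0 peaks in that stretch. On chromosome 20, 12 list 2 peaks lay from 31053419 to 31187422, 8 of them among the 100 best with a best score of 741, and list 1 had 0. No annotated gene overlapped that stretch, and its nearest genes were DEFB115, a beta-defensin gene, at 70.2 kb and CDC27P5, a pseudogene, at 133.8 kb. The other 4 lay on chromosome 21 between 8219816 and 8423552, next to the rRNA units. These stretches were picked after their values were seen.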
